A study of Mus musculus with 3 samples.

Results

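The genes described here are 42 mouse genes of the unfolded protein response and the heat shock response, chosen by gene symbol and not by their values, out of 54532 genes in the count and FPKM tables. They fall into 13 chaperones and foldases of the endoplasmic reticulum (ER), 2 genes of ER-associated degradation, 4 genes of the stress sensors and their factors, 8 genes of the integrated stress response, 8 genes of the cytosolic heat shock response, the 2 subunits of the mitochondrial chaperonin, and 5 small heat shock proteins and their co-chaperone. All 42 passed the filter for low values, a mean of at least 1 FPKM over the 3 libraries, which 12406 genes passed in all. Ddit3 had 2 rows in the tables, and the row without a single count in any library was set aside. The study reprogrammed fibroblasts of the injured adult heart toward induced cardiomyocytes (iCMs), and RNA was sequenced from 3 groups with 1 library each. All cells came from Myh6-mCherry mice, in which the mouse Myh6 promoter drives a red reporter in cardiomyocytes, and were isolated 5 days after myocardial infarction (MICFs). GMTMS-iCMs received lentiviral, doxycycline-controlled Gata4, Mef2c, Tbx5, Myocd and Sall4, and GMTMM-iCMs received Gata4, Mef2c, Tbx5, Myocd and Mesp1. Doxycycline at 1 µg/ml in the medium was given for all 3 groups, MICFs included. After 4 weeks of induction the mCherry-positive iCMs were sorted, and 5 sorted samples per cocktail were pooled into 1 library. The MICFs library came from cells that had received no virus and were dissociated after the same 4 weeks, and a sort for mCherry was described for the iCMs, so that virus, sort and cocktail cannot be told apart in any comparison with MICFs.

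The unfolded protein response is switched on when unfolded proteins collect in the ER. Its sensors IRE1 (Ern1), ATF6 and PERK (Eif2ak3) raise the chaperones, foldases and degradation machinery of the ER and slow translation, and PERK shares its output, the transcription factor ATF4, with the other kinases of the integrated stress response. The heat shock response is the counterpart in the cytosol, where heat shock factor 1 (Hsf1) raises inducible chaperones. In striated muscle, small heat shock proteins and the co-chaperone BAG3 are abundant and serve the upkeep of the sarcomere.

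The promoters of these genes carry short motifs through which the factors of each branch are known to act, and they are shown so that the groups can be read beside their sequence. RefSeq promoters on GRCm38.p6 were matched for 34 of the 42 members, not for Atf6, Cryab, Hsf1, Hsp90aa1, Hsp90ab1, Hspa8, Hyou1 and Manf, and the 250 bases before each start were searched on both strands. The ER stress response element was searched as CCAAT, then any 9 bases, then CCACG, and by its construction each match also holds a CCAAT box. Of 27025 genes with a promoter in the table, 35 held this element (0.13%), and of the 34 members 8 held it, namely 7 of 11 ER chaperones and foldases and Syvn1. The matches follow on the strand on which the element reads forward, with 5 flanking bases on either side and the fixed letters of the element in capitals.
Hspa5, chr2:34772020-34772048, plus strand: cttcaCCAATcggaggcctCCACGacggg
Hsp90b1, chr10:86705633-86705661, minus strand: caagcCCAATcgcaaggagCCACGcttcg
Hsp90b1, chr10:86705528-86705556, plus strand: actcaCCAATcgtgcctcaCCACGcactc
Calr, chr8:84847070-84847098, plus strand: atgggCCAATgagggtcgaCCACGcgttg
Canx, chr11:50325795-50325823, minus strand: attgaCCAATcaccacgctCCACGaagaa
Pdia6, chr12:17266486-17266514, plus strand: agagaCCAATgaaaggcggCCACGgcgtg
Dnajc3, chr14:118937822-118937850, plus strand: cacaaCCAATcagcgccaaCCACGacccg
Creld2, chr15:88819515-88819543, minus strand: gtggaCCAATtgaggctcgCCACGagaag
Syvn1, chr19:6046527-6046555, plus strand: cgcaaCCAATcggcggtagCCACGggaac
The CCAAT box alone stood in 37.5% of all promoters and in 11 of the 11 ER chaperones and foldases with a promoter.

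The amino acid response element, to which ATF4 is known to bind, was searched as TGATGNAA and stood in 3.91% of all promoters and in 4 members. It is shown for these 4 in the same way. Asns was called lower in GMTMS-iCMs than in MICFs, Chac1 was lower but short of a call, and Atf3 and Herpud1 were not called. Trib3 and Eif2ak3, also called lower there, held no match in their windows.
Asns, chr6:7693220-7693237, minus strand: ccacaTGATGaAActtcc
Chac1, chr2:119351044-119351061, minus strand: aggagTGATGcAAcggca
Atf3, chr1:191183431-191183448, plus strand: cttggTGATGcAAgtgcg
Herpud1, chr8:94386312-94386329, minus strand: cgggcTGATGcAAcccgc
The heat shock pair, a pair of the units that heat shock factor 1 binds, was searched as GAANNTTC or TTCNNGAA and stood in 14.5% of all promoters and in 9 of 34 members, which were Hspa1a, Hspa1b, Hsph1, Hspb1, Hspd1, Hspe1, Eif2ak3, Atf5 and Asns. In Asns the pair overlaps the amino acid response element. The 250 bases before the starts of Hspa1a and Hspa1b were the same at 247 positions and differed at 3. Both genes were among the members with the greatest differences from MICFs. Each window held 1 heat shock pair and 1 CCAAT box read from the other strand, both in capitals.
Hspa1a, chr17:34972157-34972406, minus strand: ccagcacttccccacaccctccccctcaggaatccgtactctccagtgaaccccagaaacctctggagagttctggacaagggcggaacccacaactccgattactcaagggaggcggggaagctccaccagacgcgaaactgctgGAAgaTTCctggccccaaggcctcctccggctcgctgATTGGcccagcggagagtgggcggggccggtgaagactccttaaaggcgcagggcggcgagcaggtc
Hspa1b, chr17:34959239-34959488, minus strand: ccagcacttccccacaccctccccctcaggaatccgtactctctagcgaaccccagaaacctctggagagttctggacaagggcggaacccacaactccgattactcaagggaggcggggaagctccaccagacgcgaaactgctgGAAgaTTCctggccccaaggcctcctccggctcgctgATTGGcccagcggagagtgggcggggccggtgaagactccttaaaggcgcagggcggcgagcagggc
The unfolded protein response element, TGACGTGG, stood in 0.603% of all promoters and in 0 members, which says only that these letters were not in these windows.

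The libraries held 10624118 to 11904484 counts and 20309 to 21178 genes with a count. In GMTMS-iCMs the 9 cardiomyocyte markers took 0.332% of the counts, against 0.124% in the GMTMM-labelled library and 0.000641% in MICFs, where 6 of the 9 were at or under 3 counts. The 9 fibroblast markers took 1.83% in MICFs, against 0.181% in GMTMS-iCMs and 2.67% in the GMTMM-labelled library, so that fibroblast transcripts took a higher share of the sorted GMTMM-labelled library than of MICFs. The 8 macrophage markers took 1.38%, 2.12% and 1.07% in the order MICFs, GMTMS-iCMs and the GMTMM-labelled library, and none of the 8 was at or under 3 counts in any library. Sall4, which only the GMTMS cocktail should carry, had 1190 counts in GMTMS-iCMs and 1060 in the GMTMM-labelled library, and Mesp1 had 0 in all 3, for which reason the latter is called the GMTMM-labelled library throughout. In such bulk samples fewer cells of a type and less RNA per cell cannot be told apart.

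With 1 library per group no difference could be tested between replicates. A difference below is that of log2(FPKM + 1) after quantile normalization over the 3 libraries, the scale that the study used, and a gene was called higher or lower past a difference of 1. Ratios are those of the deposited FPKM without quantile normalization, with 95% exact intervals that cover counting error only. The choice of scale matters for abundant genes such as these, since the median difference of the 4515 genes with a mean of at least 10 FPKM was -0.07 with quantile normalization and 0.27 without it for GMTMS-iCMs against MICFs, and -0.09 and 0.22 for the GMTMM-labelled library against MICFs. A member can therefore have a ratio above 1 and a difference below 0, and each member is to be read against these medians.

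Against MICFs, the members with the highest differences in both iCM libraries were the inducible chaperones Hspa1a and Hspa1b and the muscle small heat shock protein Hspb7. Cryab and Hspb1 were also called higher in both, and Dnajb1 and Bag3 in the GMTMM-labelled library, and Bag3 passed 1 in GMTMS-iCMs on 3 of 6 scales. The ER chaperones stayed within a difference of 1 after quantile normalization, though Hspa5 passed 1 on 3 of 6 scales in both iCM libraries. The sensors Ern1 and Atf6 were higher in GMTMS-iCMs, and Eif2ak3, Asns and Trib3 lower. In GMTMS-iCMs 7 of 42 members (16.7%) were higher than in MICFs by over 1, beside 11.5% of all tested genes, and 3 (7.14%) were lower, beside 10.5%. In the GMTMM-labelled library 7 members (16.7%) were higher, beside 8.07% of all tested genes, and 1 (2.38%) was lower, beside 4.69%. Both comparisons use the same MICFs library. Without quantile normalization the higher members numbered 11 (26.2%) in GMTMS-iCMs, beside 13.1% of all tested genes, and 10 (23.8%) in the GMTMM-labelled library, beside 9.26%. The lower members then numbered 3, beside 10.4%, and 1, beside 3.36%. All 10 members called in GMTMS-iCMs and all 8 called in the GMTMM-labelled library kept their call on each of the 5 other scales tried.

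The members were abundant genes, 35 of the 42 having a mean of at least 10 FPKM. Among the 4515 genes of that abundance, 13.9% were higher and 11.9% lower in GMTMS-iCMs than in MICFs, and 10.1% were higher and 4.85% lower in the GMTMM-labelled library. Leaving out quantile normalization raised the higher share of these 4515 genes to 19.8% for GMTMS-iCMs and 13.4% for the GMTMM-labelled library. The lower share became 9.48% and 1.95%. The calls of members on that scale are to be read beside these shares as well as beside those of all tested genes. The median difference over all members was 0.05 in GMTMS-iCMs, beside -0.05 over all tested genes, and 0.12 in the GMTMM-labelled library, beside -0.09. Without quantile normalization the member medians were 0.34 and 0.42, beside 0.04 and 0.03 over all tested genes. The distance of the members from all tested genes thus depended on the scale. The 4515 genes of at least 10 FPKM had medians of -0.07 and -0.09 with quantile normalization, and 0.27 and 0.22 without it. Beside those medians, the distance of the members moved less with the scale.

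**Figure D1:**
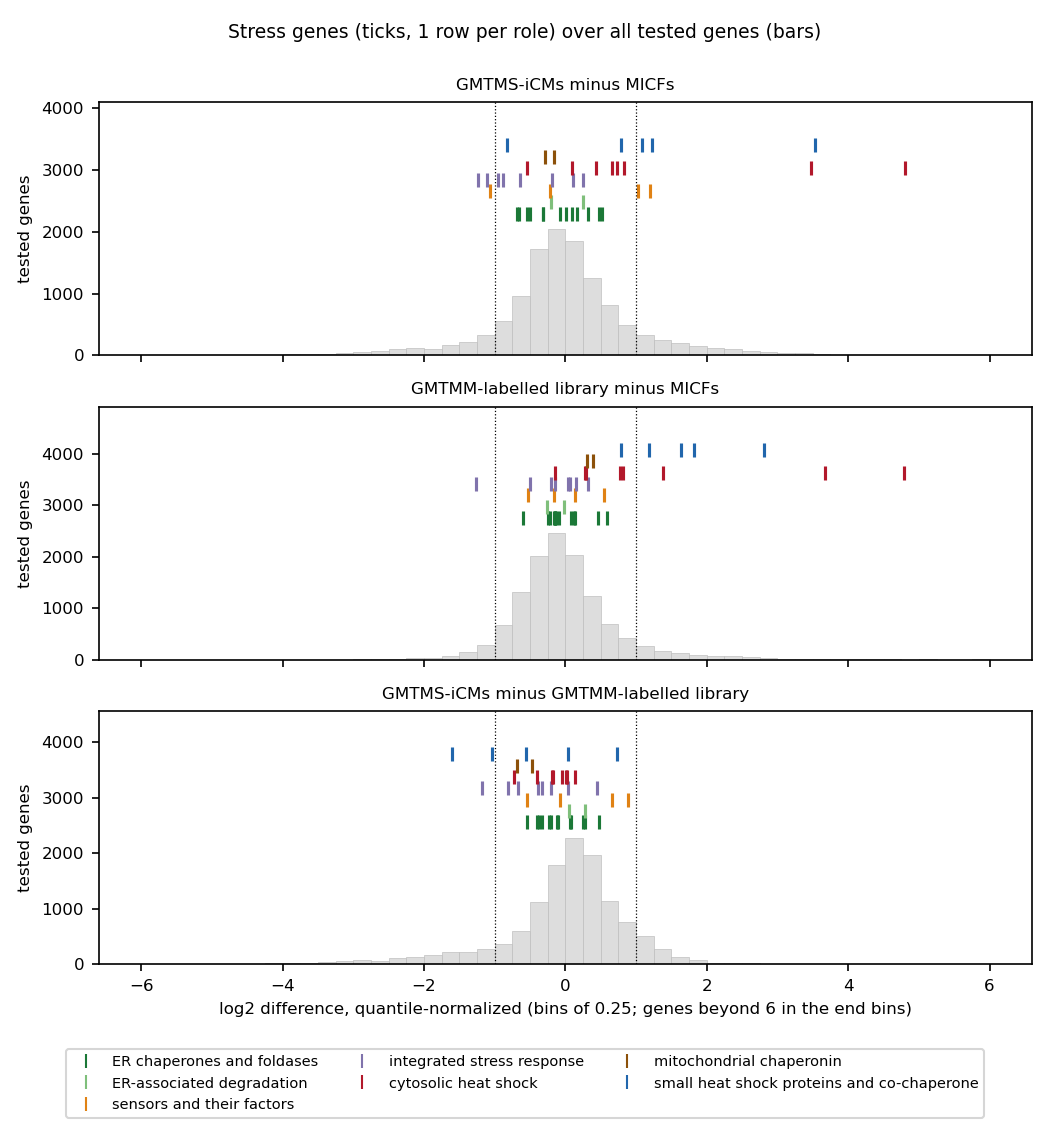
Log2 differences after quantile normalization for the 3 comparisons (horizontal axes); grey bars count all 12406 tested genes in bins of 0.25, and each tick is 1 member, with 1 coloured row per role and dotted lines at -1 and 1. Most ticks lie over the body of the bars, and Hspa1a, Hspa1b and Hspb7 stand at the right end in both comparisons with MICFs.

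**Figure D2:**
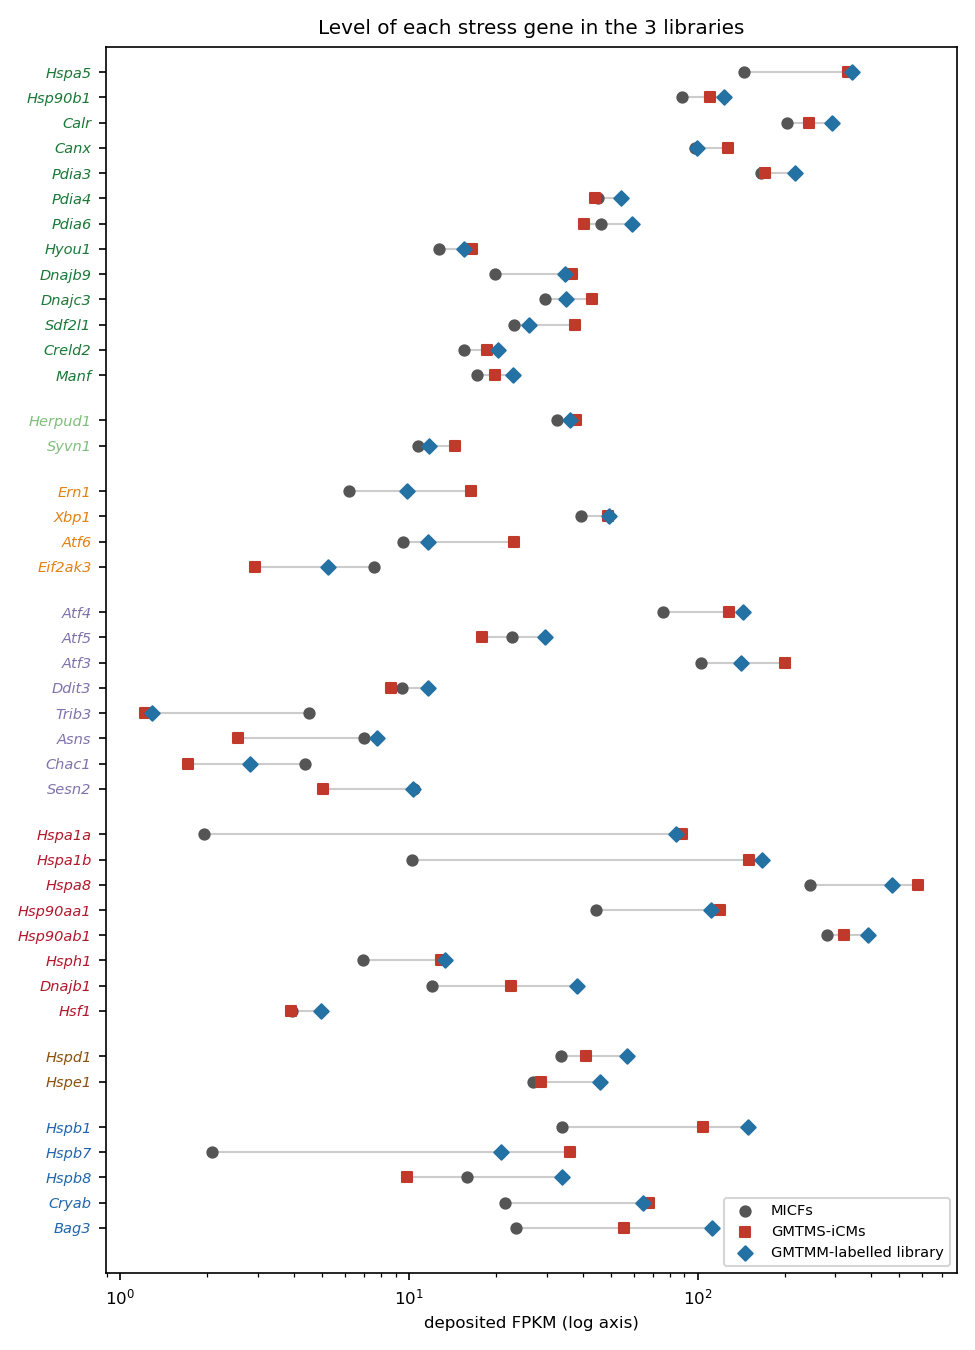
Deposited FPKM of each of the 42 members on a log axis, with a circle for MICFs, a square for GMTMS-iCMs and a diamond for the GMTMM-labelled library, 1 library each, and gene names coloured and ordered by role from ER chaperones at the top to small heat shock proteins at the bottom. The widest gaps are those of Hspa1a (1.94 FPKM in MICFs, 88.1 in GMTMS-iCMs), Hspa1b and Hspb7, and Hspb8 is the member of the lowest group whose GMTMS-iCMs square lies left of the MICFs circle.

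The ER chaperones and foldases were abundant in all 3 libraries, and 0 of 13 were called in either comparison with MICFs. Their summed share of the counts was 0.390% in MICFs, against 0.394% in GMTMS-iCMs and 0.471% in the GMTMM-labelled library. Their median difference from MICFs was -0.07 in GMTMS-iCMs and -0.13 in the GMTMM-labelled library, and it was 0.32 and 0.37 without quantile normalization, so that its sign depended on the scale.

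Hspa5 encodes BiP, the main chaperone of the ER lumen, which also holds the sensors inactive. It had 144 FPKM in MICFs, against 330 in GMTMS-iCMs and 344 in the GMTMM-labelled library, from 8777, 12979 and 16971 counts. Both iCM libraries lay above MICFs, with FPKM ratios of 2.29 (2.23 to 2.35) and 2.38 (2.32 to 2.44). The differences were 0.47 and 0.60, short of a call, and 1.19 and 1.25 without quantile normalization, past it, with the sign kept on all 6 scales.

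The chaperones Hsp90b1, Calr and Canx had smaller FPKM ratios to MICFs than Hspa5, while after quantile normalization they lay below MICFs. Hsp90b1, which encodes the ER member of the Hsp90 family, had 88.0, 110 and 123 FPKM in MICFs, GMTMS-iCMs and the GMTMM-labelled library. Its differences were -0.32 and -0.09, and 0.32 and 0.48 without quantile normalization. Calr, the calcium-binding lectin chaperone calreticulin, had 203, 243 and 291 FPKM, with differences of -0.50 and -0.13, and 0.25 and 0.51 without quantile normalization. Within each library the FPKM of Hspa5 was 70.9% of that of Calr in MICFs (interval 68.8% to 73.0%), 136% in GMTMS-iCMs (132% to 140%) and 118% in the GMTMM-labelled library (115% to 121%), a proportion that does not depend on the scaling between libraries. Hspa5 thus passed Calr in both iCM libraries and lay below it in MICFs. Canx, the membrane-bound partner of calreticulin, had 98.2, 128 and 99.6 FPKM, and differences of -0.31 and -0.59 that became 0.37 and 0.02 without quantile normalization.

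The disulfide isomerases lay below MICFs in GMTMS-iCMs after quantile normalization, short of a call, with FPKM ratios from 0.870 to 1.03. Pdia3, which works with the lectin chaperones, had 165, 171 and 217 FPKM in MICFs, GMTMS-iCMs and the GMTMM-labelled library, and a difference of -0.66 in GMTMS-iCMs. Pdia4 had 45.2, 44.1 and 54.4 FPKM, and a difference of -0.54. Pdia6, which also acts on the IRE1 and PERK sensors, had 46.3, 40.2 and 59.0 FPKM and the lowest difference of the group in GMTMS-iCMs, -0.68, with a ratio of 0.870 (0.814 to 0.929). For GMTMS-iCMs against MICFs, the sign of Pdia4 and Pdia6 was negative on all 6 scales, and that of Pdia3 changed.

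Dnajb9, the co-chaperone ERdj4 and a known target of spliced XBP1, was the other member of the group that stood above MICFs on all 6 scales in both iCM libraries by over 0.4. It had 19.9 FPKM in MICFs, against 36.6 in GMTMS-iCMs and 34.6 in the GMTMM-labelled library, with ratios of 1.84 (1.67 to 2.03) and 1.74 (1.58 to 1.91) and differences of 0.52 and 0.46. Sdf2l1, a partner of the ER DnaJ proteins, had 23.1, 37.6 and 26.0 FPKM, and its difference was 0.32 in GMTMS-iCMs and -0.16 in the GMTMM-labelled library, the latter 0.17 without quantile normalization. The remaining members stayed closer to MICFs. Dnajc3, an inhibitor of PERK signalling, had 29.7, 43.0 and 35.1 FPKM. Hyou1, the nucleotide exchange factor of BiP, had 12.7, 16.5 and 15.5 FPKM, and its difference was positive on all 6 scales in both iCM libraries, at 0.16 and 0.08. Creld2 and Manf, secreted proteins of the ER stress response, had 15.5, 18.7 and 20.4 FPKM and 17.2, 19.8 and 23.0 FPKM.

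Of the genes of ER-associated degradation, Herpud1, which organises the degradation complex, had 32.7, 37.9 and 36.1 FPKM in MICFs, GMTMS-iCMs and the GMTMM-labelled library. Syvn1, the ubiquitin ligase HRD1, had 10.8, 14.5 and 11.8 FPKM. Their differences from MICFs lay between -0.25 and 0.25, and their ratios lay between 1.09 and 1.35.

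The 3 sensors parted in GMTMS-iCMs, where Ern1 and Atf6 were higher and Eif2ak3 lower than in MICFs. Ern1, the kinase and endonuclease that splices Xbp1, had 6.19 FPKM in MICFs, against 16.4 in GMTMS-iCMs and 9.88 in the GMTMM-labelled library, from 728, 1246 and 943 counts. Its difference from MICFs was 1.20 in GMTMS-iCMs, ranging from 1.20 to 1.41 over 6 scales, with a ratio of 2.65 (2.42 to 2.91), and 0.54 in the GMTMM-labelled library, with a ratio of 1.60 (1.45 to 1.76). GMTMS-iCMs had the highest level and MICFs the lowest, with the GMTMM-labelled library between them.

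Atf6, the sensor that is cleaved in the Golgi into a transcription factor, had 9.52 FPKM in MICFs, against 23.2 in GMTMS-iCMs and 11.6 in the GMTMM-labelled library. The difference from MICFs was 1.03 in GMTMS-iCMs (1.03 to 1.28 over 6 scales), just past the threshold, and 0.14 in the GMTMM-labelled library. Here the GMTMS-iCMs stood apart from both other libraries, and its ratio to the GMTMM-labelled library was 1.99 (1.86 to 2.14).

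Eif2ak3, the kinase PERK that phosphorylates the translation factor eIF2 alpha, had 658 counts in MICFs, against 164 in GMTMS-iCMs and 370 in the GMTMM-labelled library, or 7.59, 2.93 and 5.26 FPKM. Its difference was -1.07 in GMTMS-iCMs, between -1.45 and -1.07 over 6 scales, and the level in MICFs was 2.59 times (2.18 to 3.09) that in GMTMS-iCMs. In the GMTMM-labelled library the difference was -0.52. The order of the libraries was thus the reverse of that of Ern1. Within the libraries the FPKM of Eif2ak3 was 79.7% of that of Atf6 in MICFs (72.5% to 87.7%), 45.2% in the GMTMM-labelled library (40.1% to 50.8%) and 12.6% in GMTMS-iCMs (10.7% to 14.8%). Xbp1, the factor made active by Ern1 splicing, had 39.4, 48.7 and 49.2 FPKM in MICFs, GMTMS-iCMs and the GMTMM-labelled library, with differences of -0.22 and -0.15 that turned to 0.30 and 0.31 without quantile normalization. Splicing itself cannot be read from gene counts.

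Within the integrated stress response, the transcription factors Atf4 and Atf3 had a higher FPKM in both iCM libraries, while Trib3 was called lower in both and Asns in GMTMS-iCMs. In GMTMS-iCMs 0 of 8 members were called higher and 2 lower, beside 11.5% and 10.5% of all tested genes, and the median difference from MICFs was -0.76. In the GMTMM-labelled library 0 were higher and 1 lower, beside 8.07% and 4.69%, with a median of -0.06.

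Atf4, the factor whose translation rises when eIF2 alpha is phosphorylated, had 75.8 FPKM in MICFs, against 128 in GMTMS-iCMs and 143 in the GMTMM-labelled library, from 2572, 2807 and 3940 counts. Its FPKM ratios were 1.69 (1.60 to 1.78) and 1.89 (1.80 to 1.98), and its differences 0.11 and 0.32, or 0.75 and 0.91 without quantile normalization. Atf3, a stress-induced repressor, had 103, 200 and 141 FPKM. Its difference was 0.25 in GMTMS-iCMs, 0.95 without quantile normalization, and in the GMTMM-labelled library it turned from -0.20 to 0.45 with the scale. Atf5, a factor of the mitochondrial stress response, had 22.8, 17.9 and 29.7 FPKM, with a difference of -0.64 in GMTMS-iCMs, negative on all 6 scales. Ddit3, the death-associated factor CHOP, was the member of the group nearest to equal levels, with 9.45, 8.67 and 11.6 FPKM from 233, 138 and 232 counts, and its interval of the ratio in GMTMS-iCMs, 0.738 to 1.14, included equality.

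Trib3, a pseudokinase that curbs ATF4 activity, had 138 counts in MICFs, against 24 in GMTMS-iCMs and 32 in the GMTMM-labelled library, or 4.51, 1.22 and 1.29 FPKM. Both iCM libraries lay below MICFs, which had 3.71 times (2.39 to 5.99) and 3.50 times (2.37 to 5.32) their FPKM, and the differences were -1.23 and -1.26. Asns, asparagine synthetase, had 276, 65 and 248 counts, or 7.01, 2.56 and 7.76 FPKM. It was low in GMTMS-iCMs alone among the 3 libraries, with a difference of -1.11 and 2.74 times (2.09 to 3.65) as much in MICFs, while the GMTMM-labelled library differed from MICFs by 0.07.

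Chac1, which degrades glutathione, followed at 4.37, 1.71 and 2.82 FPKM, with a difference of -0.88 in GMTMS-iCMs that was short of a call after quantile normalization and reached -1.39 on another, and a ratio of 0.646 (0.456 to 0.906) in the GMTMM-labelled library. Sesn2, an inhibitor of mTORC1 on amino acid shortage, had 10.4, 5.05 and 10.3 FPKM and a difference of -0.95 in GMTMS-iCMs, which ranged from -1.12 to -0.91. The GMTMM-labelled library was at the level of MICFs for Sesn2 (ratio 0.990, 0.869 to 1.13). Relative to the FPKM of Atf4 in the same library, Asns was at 9.25% in MICFs (8.14% to 10.5%), 5.43% in the GMTMM-labelled library (4.75% to 6.17%) and 2.00% in GMTMS-iCMs (1.54% to 2.55%). Trib3 was at 5.95% of Atf4 in MICFs (4.98% to 7.07%), 0.949% (0.607% to 1.41%) in GMTMS-iCMs and 0.901% (0.616% to 1.27%) in the GMTMM-labelled library.

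A list of 30 other genes of the integrated stress response, of which 27 passed the filter, was compared in the same way. In GMTMS-iCMs 7 were higher than in MICFs and 0 lower, beside 11.5% and 10.5% of all tested genes, with a median of -0.08. In the GMTMM-labelled library 6 were higher and 0 lower, beside 8.07% and 4.69%, with a median of 0.28. The gene with the highest difference was Slc7a11, the cystine transporter, with 27 counts in MICFs, against 1247 in GMTMS-iCMs and 398 in the GMTMM-labelled library, and differences of 3.21 and 1.57. Phgdh, the entry enzyme of serine synthesis, had the lowest difference in GMTMS-iCMs at -0.91, from 53, 6 and 56 counts. The genes named next were chosen after their values were seen. Slc3a2, the partner chain of SLC7A11, had 49.8, 198 and 149 FPKM. Ppp1r15b, a subunit of the phosphatase that restores eIF2 alpha, had 14.6, 67.2 and 36.9 FPKM, and Nupr1, a stress-induced chromatin protein, 10.1, 53.5 and 52.2 FPKM.

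The cytosolic heat shock group held Hspa1a, the member with the greatest difference from MICFs in both iCM libraries. In GMTMS-iCMs 2 of 8 members were higher than in MICFs and in the GMTMM-labelled library 3, beside 11.5% and 8.07% of all tested genes, with 0 lower in either, and the median differences were 0.69 and 0.79. The summed share of the group was 0.269% of the counts in MICFs, against 0.420% in GMTMS-iCMs and 0.451% in the GMTMM-labelled library.

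Hspa1a, an inducible chaperone that is nearly silent in many unstressed cells, had 83 counts in MICFs, against 2427 in GMTMS-iCMs and 2913 in the GMTMM-labelled library, or 1.94, 88.1 and 84.1 FPKM. Its FPKM ratios to MICFs were 45.3 (36.4 to 57.1) and 43.2 (34.8 to 54.4), with differences of 4.80 and 4.79. Its neighbour and close copy Hspa1b had 412, 3906 and 5478 counts, or 10.2, 150 and 167 FPKM, with ratios of 14.7 (13.3 to 16.3) and 16.4 (14.8 to 18.1) and differences of 3.48 and 3.67. Both iCM libraries lay far above MICFs for both genes and close to each other.

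The copies share much of their sequence, since 58.8% of the 50-base words of the Hspa1a transcript also stand in Hspa1b, and how reads that fit both were counted is not given in the sources used here. A sum does not depend on how counted reads were split between the copies, but it would miss shared reads left uncounted. Added up, the pair had 495 counts in MICFs, against 6333 in GMTMS-iCMs and 8391 in the GMTMM-labelled library. The ratio of the sum to MICFs was 19.8 (18.1 to 21.8) in GMTMS-iCMs and 20.9 (19.1 to 22.9) in the GMTMM-labelled library. It was scaled by the library sizes behind the deposited FPKM, which differ from the count totals. The FPKM of Hspa1a as a share of that of Hspa1b was 19.0% in MICFs (14.8% to 24.1%), 58.7% in GMTMS-iCMs (55.8% to 61.8%) and 50.2% in the GMTMM-labelled library (48.0% to 52.6%).

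The constitutive members had smaller FPKM ratios than Hspa1a and Hspa1b. Hspa8, the constitutive cytosolic counterpart of Hspa1a and the most abundant member in both iCM libraries, had 245, 581 and 470 FPKM in MICFs, GMTMS-iCMs and the GMTMM-labelled library. Its differences were 0.43 and 0.29, and 1.24 and 0.94 without quantile normalization, positive on all 6 scales. Relative to Hspa8, Hspa1b was 4.17% in MICFs (3.77% to 4.60%), 25.8% in GMTMS-iCMs (25.0% to 26.7%) and 35.6% in the GMTMM-labelled library (34.6% to 36.7%). The inducible copy thus stood closer to the constitutive gene in both iCM libraries. Of the words of Hspa8, 52.7% were shared with other genes, chiefly processed copies, and for Hsp90aa1 58.5% were, so that their counts may be split.

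Hsp90aa1, the inducible cytosolic Hsp90, had 44.5, 120 and 111 FPKM, with differences of 0.83 and 0.81 that passed 1 without quantile normalization, at 1.41 and 1.30. Hsp90ab1, its constitutive counterpart, had 280, 321 and 390 FPKM, with differences of -0.55 and -0.15 that became 0.20 and 0.48. The FPKM of Hsp90aa1 was 15.9% of that of Hsp90ab1 in MICFs (15.2% to 16.6%), 37.3% in GMTMS-iCMs (36.0% to 38.7%) and 28.4% in the GMTMM-labelled library (27.5% to 29.3%). As with the Hspa1 pair, Hsp90aa1 took a greater share relative to its constitutive counterpart in both iCM libraries. This did not hold for Dnajb1 and Hsph1 beside Hspa8 in GMTMS-iCMs, as given next.

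Dnajb1, the inducible DnaJ partner of the cytosolic chaperones, had 552, 670 and 1431 counts, or 12.0, 22.5 and 38.2 FPKM. It was called in the GMTMM-labelled library, with a difference of 1.38 and a ratio of 3.19 (2.89 to 3.53), and stood at 0.65 in GMTMS-iCMs with a ratio of 1.88 (1.68 to 2.11). Hsph1, which exchanges nucleotide on these chaperones, had 6.93, 12.9 and 13.3 FPKM and differences of 0.73 and 0.78. The FPKM of Dnajb1 was 3.87% of that of Hspa8 for GMTMS-iCMs (3.58% to 4.18%), below the 4.88% of MICFs (4.48% to 5.32%). The GMTMM-labelled library lay above both at 8.14% (7.71% to 8.59%). Hsph1 was 2.22% of Hspa8 for GMTMS-iCMs (2.07% to 2.37%), below the 2.83% of MICFs (2.62% to 3.05%). The GMTMM-labelled library was level with MICFs, at 2.83% (2.66% to 3.00%). Hsf1, the regulator of the response, had 3.95, 3.91 and 4.97 FPKM, and its ratio in GMTMS-iCMs was 0.992 (0.845 to 1.16). The activity of the factor is set by its protein and was not measured.

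Inducible chaperones are also known to rise during enzymatic dissociation of tissue, together with immediate early genes. The 16 immediate early genes listed for that reason took 0.868% of the counts in MICFs, against 0.832% in GMTMS-iCMs and 1.10% in the GMTMM-labelled library, and none was at or under 3 counts in any library. In GMTMS-iCMs 1 was higher than in MICFs and 5 lower, beside 11.5% and 10.5% of all tested genes, with a median difference of -0.33. The same list held 2 higher and 3 lower genes in the GMTMM-labelled library, beside 8.07% and 4.69%, with a median of 0.09. Fos, chosen after its values were seen, had 413, 194 and 306 FPKM in MICFs, GMTMS-iCMs and the GMTMM-labelled library. The summed FPKM of all 16 went the other way, at 2464, 3487 and 3876. Without quantile normalization 5 were higher and 3 lower in GMTMS-iCMs, and 5 higher and 0 lower in the GMTMM-labelled library. The part of dissociation and sorting in the heat shock values was not tested.

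The mitochondrial chaperonin subunits followed each other. Hspd1 had 33.6, 41.0 and 57.1 FPKM in MICFs, GMTMS-iCMs and the GMTMM-labelled library, and Hspe1, its lid, had 26.9, 28.6 and 45.9 FPKM. Both were highest in the GMTMM-labelled library, with ratios to MICFs of 1.70 (1.58 to 1.83) and 1.71 (1.53 to 1.90) and differences of 0.31 and 0.39. In GMTMS-iCMs the differences were -0.15 and -0.29, and 0.28 and 0.09 without quantile normalization. The FPKM of Hspd1 was 125%, 143% and 124% of that of Hspe1 in the 3 libraries, with overlapping intervals (113% to 138%, 127% to 161% and 114% to 135%). Of the words of Hspd1, 44.8% were shared with other genes.

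The small heat shock proteins and their co-chaperone were the group with the highest median difference, 1.08 in GMTMS-iCMs and 1.63 in the GMTMM-labelled library. Of 5 members, GMTMS-iCMs had 3 called higher than in MICFs and the GMTMM-labelled library 4, beside 11.5% and 8.07% of all tested genes, with 0 lower in either. Their summed share of the counts was 0.0199% in MICFs, against 0.0410% in GMTMS-iCMs and 0.0647% in the GMTMM-labelled library.

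Hspb7, a small heat shock protein of heart and skeletal muscle that binds sarcomeric proteins, had 83 counts in MICFs, against 929 in GMTMS-iCMs and 674 in the GMTMM-labelled library, or 2.08, 36.1 and 20.8 FPKM. Its ratios to MICFs were 17.3 (13.8 to 22.0) and 10.0 (7.95 to 12.7), with differences of 3.53 and 2.81. GMTMS-iCMs had 1.73 times (1.57 to 1.92) the level of the GMTMM-labelled library, the same order as that of the summed cardiomyocyte markers.

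Cryab, alpha B-crystallin, which guards desmin and titin in muscle, had 458, 932 and 1114 counts, or 21.5, 67.8 and 64.5 FPKM, with ratios of 3.15 (2.82 to 3.53) and 3.00 (2.69 to 3.35) and differences of 1.22 and 1.18. The iCM libraries lay above MICFs and within counting error of each other. Its exons overlap those of Hspb2 on the other strand over 17.0% of their length, and Hspb2 had 13, 18 and 46 counts. Hspb1, which protects actin filaments, had 501, 997 and 1799 counts, or 33.8, 104 and 149 FPKM. It was higher than in MICFs in both iCM libraries, with differences of 1.08 and 1.63, and highest in the GMTMM-labelled library, with ratios of 3.08 (2.77 to 3.44) and 4.42 (4.00 to 4.89). Of its words 51.6% also stand in a pseudogene that had 2 to 3 counts per library.

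Bag3, the co-chaperone that links small heat shock proteins to selective autophagy at the Z-disc, had 869, 1322 and 3346 counts, or 23.6, 55.6 and 112 FPKM. Its ratios were 2.36 (2.16 to 2.57) in GMTMS-iCMs and 4.74 (4.40 to 5.12) in the GMTMM-labelled library, and its differences 0.78 and 1.82, the former past 1 on 3 of 6 scales and 1.20 without quantile normalization. The GMTMM-labelled library was above the other two. Hspb8, the small heat shock protein that forms a complex with BAG3, had 445, 178 and 771 counts, or 15.9, 9.83 and 33.8 FPKM. It was the member of the group that lay below MICFs in GMTMS-iCMs, with a difference of -0.82 and a ratio of 0.620 (0.518 to 0.739), and above MICFs in the GMTMM-labelled library, with 0.79, or 1.05 without quantile normalization, and a ratio of 2.13 (1.90 to 2.40). As a share of the FPKM of Cryab, Hspb8 was 73.7% in MICFs (64.5% to 84.1%), 14.5% in GMTMS-iCMs (12.3% to 17.0%) and 52.5% in the GMTMM-labelled library (47.8% to 57.6%).

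**Figure D3:**
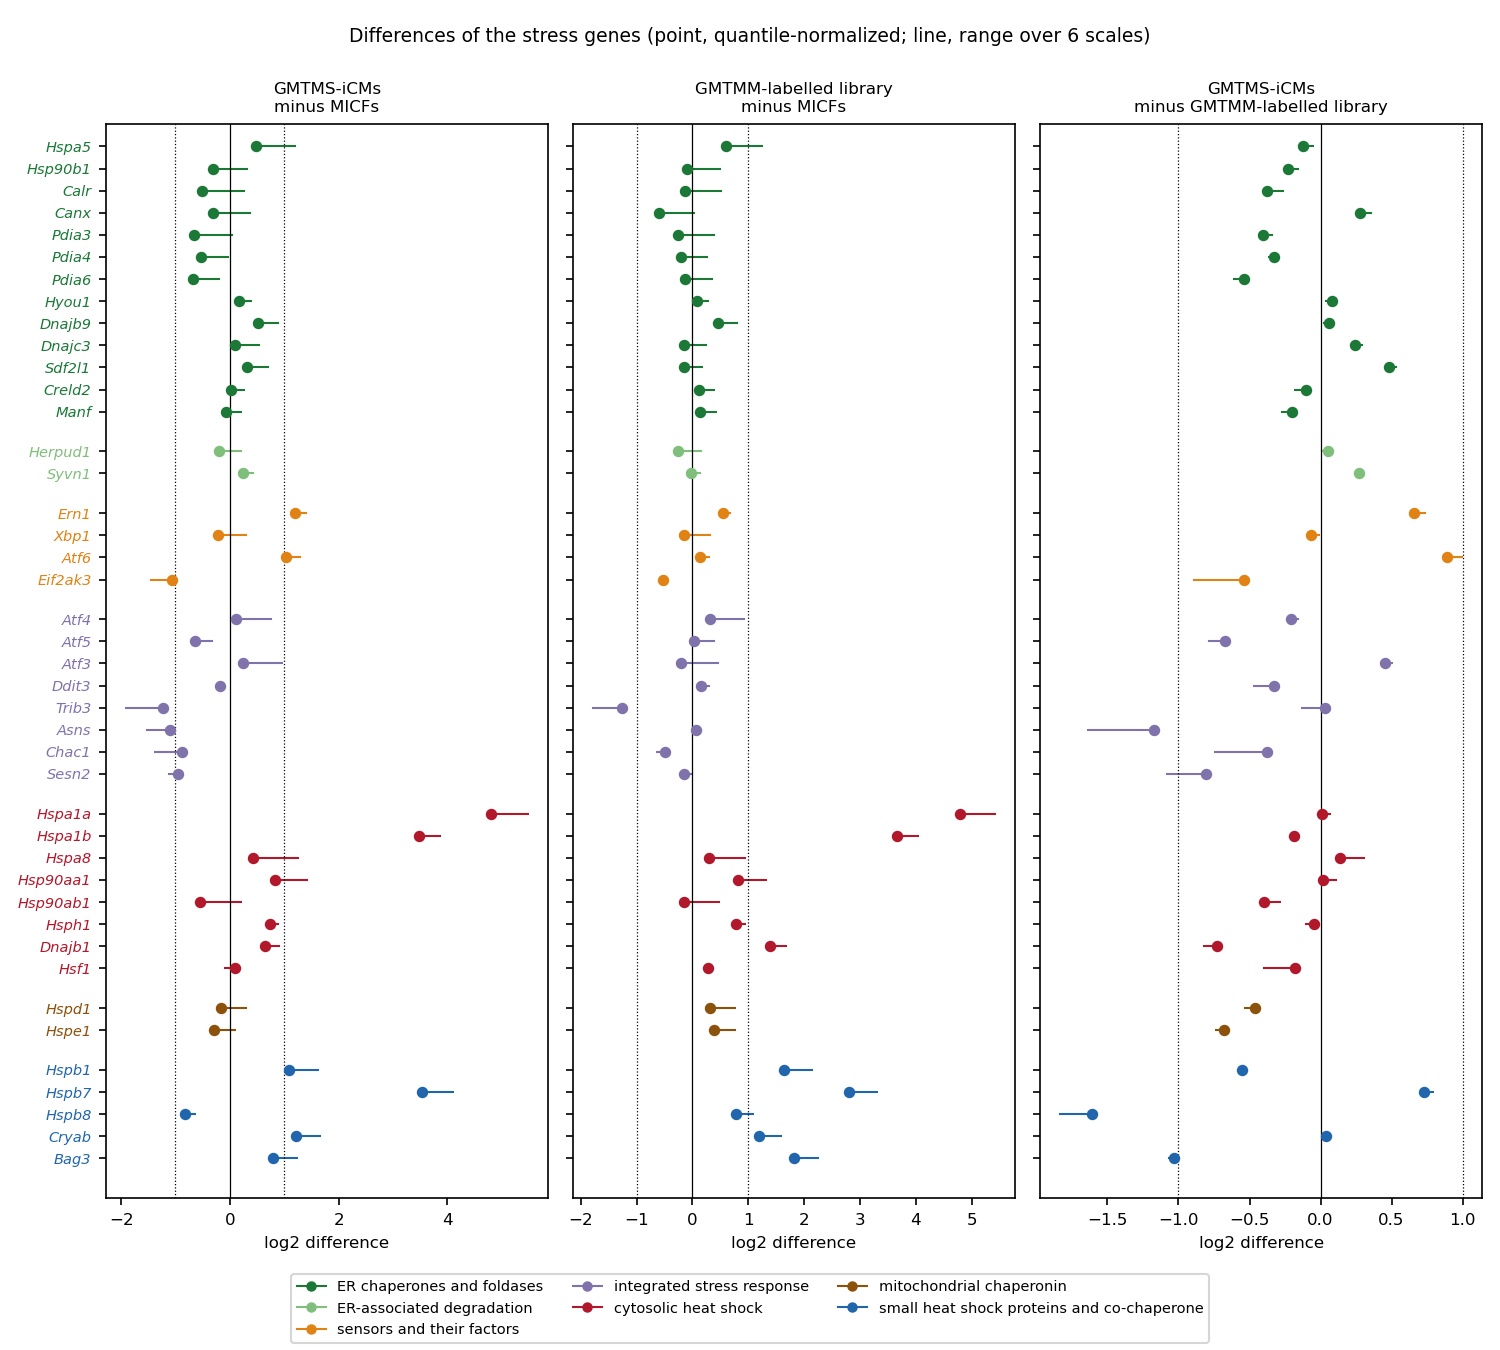
Log2 difference of each of the 42 members in the 3 comparisons, with a point for the quantile-normalized value, a line for the range over 6 scales and dotted lines at -1 and 1; colours mark the roles, and the 3 horizontal axes differ in range. Hspa1a, Hspa1b and Hspb7 keep to the right of 1 over the whole line in both comparisons with MICFs, while the lines of Calr and Xbp1 cross 0.

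Between both iCM libraries, 0 of 42 members were higher in GMTMS-iCMs than in the GMTMM-labelled library by over 1, beside 8.29% of all tested genes, and 3 (7.14%) were lower, beside 11.1%. Without quantile normalization 0 were higher, beside 8.24%, and 2 lower, beside 12.0%. The median difference over the members was -0.19, beside 0.10 over all tested genes. The 3 lower members were Hspb8, Asns and Bag3. Hspb8 differed by -1.61 (-1.83 to -1.60 over 6 scales), and the GMTMM-labelled library had 3.44 times (2.92 to 4.08) the FPKM of GMTMS-iCMs. Asns differed by -1.17, with 3.03 times (2.30 to 4.05) as much in the GMTMM-labelled library. Bag3 lay at the threshold, with -1.03 and 2.01 times (1.89 to 2.15), and lost its call on 1 of 5 other scales.

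Several members that stood high in both iCM libraries were nearly level between them. Hspa1a differed by 0.01 with a ratio of 1.05 (0.992 to 1.11), and Cryab by 0.04 with a ratio of 1.05 (0.963 to 1.15), both intervals including equality. The greatest excess of GMTMS-iCMs was that of Atf6 at 0.89, followed by Hspb7 at 0.73 and Ern1 at 0.66. In the same comparison all 9 fibroblast markers were lower and all 9 cardiomyocyte markers higher in GMTMS-iCMs by over 1, and the part of this mixture in the values of the members was not tested.

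**Figure D4:**
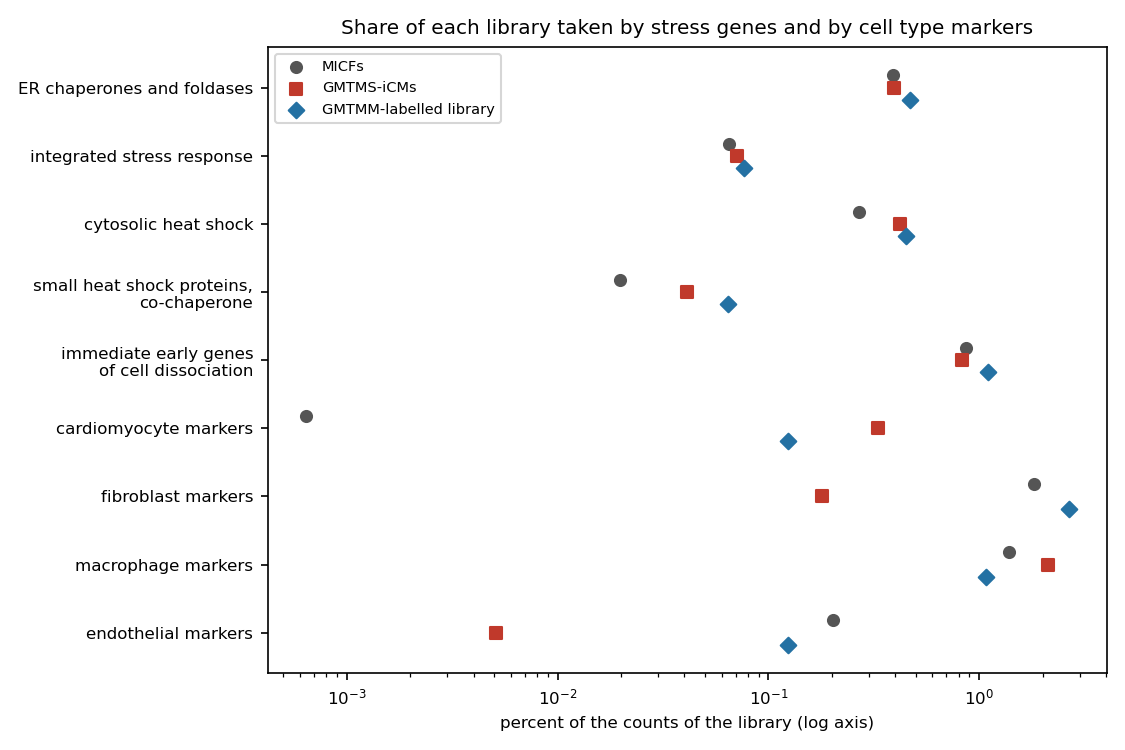
Percent of the counts of each library (log axis) taken by 4 groups of members, by 16 immediate early genes and by 4 lists of cell type markers, with a circle for MICFs, a square for GMTMS-iCMs and a diamond for the GMTMM-labelled library. The stress groups move within a narrow range beside the cardiomyocyte markers, which go from 0.000641% in MICFs to 0.332% in GMTMS-iCMs, and the endothelial markers, which are lowest in GMTMS-iCMs.

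The other genes of the same pathways came from lists set by function. Of 30 other genes of ER folding and degradation, 29 passed the filter, and 0 were higher and 3 lower than in MICFs in GMTMS-iCMs, beside 11.5% and 10.5% of all tested genes, with a median of -0.30. The GMTMM-labelled library had 1 higher and 0 lower, beside 8.07% and 4.69%, with a median of -0.04. The lowest was Serpinh1, the collagen chaperone HSP47, with 9857, 1082 and 10734 counts, or 280, 47.7 and 376 FPKM, and a difference of -3.22 in GMTMS-iCMs. Its level in GMTMS-iCMs moved with the fibroblast markers, and its FPKM was 101%, 87.9% and 56.6% of that of Col1a1 in MICFs, GMTMS-iCMs and the GMTMM-labelled library. The highest was Mbtps2, a protease that cleaves ATF6, at 2.82, 3.63 and 1.87 FPKM with a difference of 0.41.

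Of 33 other heat shock proteins and co-chaperones, 32 passed the filter. In GMTMS-iCMs 2 were higher and 1 lower than in MICFs, beside 11.5% and 10.5% of all tested genes, with a median of 0.04. For the GMTMM-labelled library 5 were higher and 1 lower, beside 8.07% and 4.69%, with a median of 0.17. Unc45b, the chaperone of muscle myosin, had the highest difference in GMTMS-iCMs, with 1.52, 4.77 and 3.51 FPKM and differences of 1.30 and 0.86. Hspa12b, an endothelial relative of the chaperone family, had the lowest value, with 912, 18 and 242 counts and differences of -3.71 and -1.68. The 6 endothelial markers moved with it, taking 0.202% of the counts in MICFs, against 0.00513% in GMTMS-iCMs and 0.125% in the GMTMM-labelled library.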

How the data were processed

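RNA from 3 libraries, 1 per group, was sequenced by the study. The authors deposited raw read counts per gene and FPKM per gene. The submitters' processing notes name HISAT2 2.0.5 and mm9, while the gene coordinates in the tables equal those of GENCODE M21 on GRCm38 for 98.26% of 54409 identifiers and for all 43 member rows. The counting tool, its use of strand and its treatment of reads that fit several genes are not given in the sources used here. The deposited FPKM were recomputed from the counts, and the library size in them is the geometric mean of the totals multiplied by each DESeq2 size factor. The column with the symbol cMF was taken as MICFs.

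FPKM were quantile-normalized over the 3 libraries and put on log2(FPKM + 1), as in the study, and genes with a mean of at least 1 FPKM were described. With 1 library per group no test was run. Ratios carry 95% Clopper-Pearson intervals of the counts (SciPy 1.17.1, Python 3.11.15), which cover counting error only, since reads carried no molecular identifiers. With totals of 10624118 to 11904484 counts, a floor of 3 counts is 0.252 to 0.282 CPM. The other scales were a quantile normalization after the log2 step, the FPKM without it, a pseudocount of 0.1, TMM log2 CPM with a prior count of 2 (edgeR 4.0.16), and DESeq2 1.42.0 size factors. Other settings were thresholds of log2 of 1.5 and of 2, no filter, and a mean of at least 10 FPKM. The code was tested on simulated data. Shared sequence was measured in 50-base words of GENCODE transcripts. Named genes were the 42 members, and from each list of other pathway genes the highest and the lowest in GMTMS-iCMs against MICFs. A gene outside this rule is said to have been chosen after its values were seen. Members, lists and scales were chosen with earlier results of these data known.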

Additional observations from a re-analysis of the deposited data

Results flagged for a closer look

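Hspb8 was singled out because the GMTMS-iCMs and GMTMM-labelled libraries lay on opposite sides of MICFs beyond counting error and differed by over 1 from each other. It had 445 counts in MICFs, against 178 in GMTMS-iCMs and 771 in the GMTMM-labelled library, and the difference of GMTMS-iCMs from the latter was -1.61. With 1 library per group this difference was not tested. The fibroblast markers, which took 0.181% of the counts in GMTMS-iCMs and 2.67% in the GMTMM-labelled library, differ in the same direction, and their part in the value was not tested.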

How the results depend on the processing

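Counts of members and genes moved with the scale and the threshold. In GMTMS-iCMs against MICFs, the higher members numbered 11 with FPKM that were not quantile-normalized, under TMM, under DESeq2 size factors and at a threshold of log2 of 1.5, and 3 at a threshold of 2; the lower members numbered 5 with a pseudocount of 0.1, with TMM and with DESeq2 size factors, 9 at log2 of 1.5 and 0 at 2. The median over the members became 0.338 without quantile normalization and 0.3505 with DESeq2 size factors. In the GMTMM-labelled library against MICFs, the higher members numbered 11 at log2 of 1.5 and 3 at 2, the lower 2 and 0, and the median was 0.4248 without quantile normalization, 0.4072 under TMM and 0.4363 under DESeq2 size factors. Between both iCM libraries, 3 members were higher and 7 lower at log2 of 1.5, and 0 lower at 2. Over all tested genes, log2 of 1.5, a threshold of 2 and a mean of at least 10 FPKM gave 2396, 491 and 629 higher and 2434, 479 and 537 lower genes for GMTMS-iCMs against MICFs. The same settings gave 1856, 329 and 455 higher and 2032, 63 and 219 lower for the GMTMM-labelled library against MICFs, and 2455, 68 and 432 higher and 2087, 513 and 530 lower between both iCM libraries. Lower genes in the GMTMM-labelled library against MICFs numbered 1042 with a pseudocount of 0.1, 918 with TMM and 906 with DESeq2 size factors. No called member changed direction on any scale, and 1 lost its call on 1 scale, Bag3 between both iCM libraries. No paired analysis was possible because each group has 1 library. At these depths the low members, such as Trib3 with 24 counts, have wide intervals, and differences between animals or cultures could not be measured.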

Other observations

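The heat shock triple, GAA and TTC units in alternation with 2 bases between them, stood in 0.514% of the promoters searched and in 2 of 34 members, Hspd1 and Hspe1. Hspe1 and Hspd1 lie head to head on chromosome 1, and the windows before the start of Hspe1 and before 1 of the 2 starts that RefSeq gives for Hspd1 overlap and hold the same triple. In GMTMS-iCMs the differences from MICFs were -0.15 for Hspd1 and -0.29 for Hspe1, beside 4.80 for Hspa1a and 3.48 for Hspa1b, whose windows hold a pair and no triple. Without quantile normalization Hspd1 and Hspe1 differed by 0.28 and 0.09, beside 4.92 and 3.75. In the GMTMM-labelled library the quantile-normalized differences of Hspd1 and Hspe1 were 0.31 and 0.39, beside 4.79 and 3.67.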
